A study of Mus musculus and Acomys cahirinus with 25 samples.

Results

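The clade B serpins are the intracellular branch of the serpin family of protease inhibitors. They were taken as every gene symbol in the count files that begins with Serpinb followed by a number, which gave 27 of the 24500 gene symbols. All 27 were examined in 25 RNA-seq libraries of dorsal skin, of which 13 came from laboratory mouse (Mus musculus) and 12 from African spiny mouse (Acomys cahirinus). The study asked how hair follicles form anew in large full thickness wounds, at the wound center in the laboratory mouse and across the wound in the spiny mouse.

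Laboratory mice were animals of 4 weeks, mainly C57BL/6J, with a 1 × 1 cm wound, taken at post-wound day 14 (PWD14). Their WT libraries comprised 2 of wound center epidermis, 2 of wound margin epidermis, 5 of wound center dermis and 2 of wound margin dermis. A further 2 center dermis libraries were labelled KO. These are K14-Cre-Twist1 mice, in which Cre driven by the keratin 14 promoter deletes Twist1 in the basal epidermis, so that the dermis itself was not the targeted layer. The study's methods name wild-type Twist1+/+ mice as their controls, and the labels, which read WT throughout, do not say which libraries came from them. Of the 5 WT center dermis libraries, replicates 1 and 2 stood beside the margin dermis in the study's own comparison and replicates 3 to 5 beside the KO dermis, and the tests below follow that split. Spiny mice were WT animals of 8 weeks with a 1.5 × 1.5 cm wound, and their labels give no wound region. Epidermis was sampled at PWD0 (1 library), PWD14 (2), PWD21 (2) and PWD28 (1), and dermis at PWD0 (2), PWD14 (1), PWD21 (2) and PWD28 (1). These days are those of the labels, and a supplementary list of the study gives days that differ by a little for all but the unwounded skin. Groups of 1 library carry no error. Spiny mouse reads were counted on mouse genes, so levels were not compared between species. Nothing in the labels says that replicates came from separate animals, and p-values measure the spread between libraries.

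Serpins inhibit proteases with an exposed reactive center loop near the C-terminus, which the protease cuts and which then traps it. Clade B members lack a classical secretion signal and act mainly inside cells, where several guard against the cell's own lysosomal or granule proteases. Stratified epithelium is known for a dense set of them, among them maspin (Serpinb5), which does not inhibit proteases by the usual mechanism, and the relatives of the human squamous cell carcinoma antigens (Serpinb3a to Serpinb3d).

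The members lie in 2 clusters of the mouse genome (GRCm38, RefSeq positions). The chromosome 1 cluster holds 12 members over 748 kb (chr1:106861175-107608978), from Serpinb5 to Serpinb8. The chromosome 13 cluster holds 15 members over 1161 kb (chr13:32842092-34002794), from Serpinb1a to Serpinb6a. Within each cluster some rows are near copies, which bears on how reads are assigned. In the coding sequences of GENCODE M21, Serpinb3b was 93.0% identical to Serpinb3a, Serpinb1b was 90.6% identical to Serpinb1a, and Serpinb9f was 98.7% identical to Serpinb9g. The Serpinb6 rows were less alike, with Serpinb6b 86.4%, Serpinb6c 87.0% and Serpinb6e 79.6% identical to Serpinb6a. The share of 75-base stretches of the coding sequence that also occur in another gene's transcript was 11.6% for Serpinb3a, under 5% for the other Serpinb1, Serpinb3 and Serpinb6 members, and 72.5% for Serpinb9g. The stretch that codes for the reactive center loop is shown for the Serpinb3 group, because these near copies differ in it and the loop sets which protease is caught. Each stretch lies in 1 exon. Bases run from the codon after the hinge glycine to the codon before the C-terminal signature, and capitals mark bases that differ from Serpinb3a.
Serpinb3a (chr1:107046094-107046165, minus strand): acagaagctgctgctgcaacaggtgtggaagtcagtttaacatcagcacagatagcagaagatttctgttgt
Serpinb3b (chr1:107154447-107154518, minus strand): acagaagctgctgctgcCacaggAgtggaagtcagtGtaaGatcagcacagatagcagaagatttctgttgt
Serpinb3c (chr1:107271707-107271775, minus strand): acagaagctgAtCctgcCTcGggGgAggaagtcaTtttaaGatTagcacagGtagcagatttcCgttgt
Serpinb3d (chr1:107078271-107078342, minus strand): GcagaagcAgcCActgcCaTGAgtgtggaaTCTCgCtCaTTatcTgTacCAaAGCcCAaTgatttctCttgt
Serpinb3b differed from Serpinb3a at 4 of 72 bases, Serpinb3c at 12 of 69 and Serpinb3d at 27 of 72. Bases of Serpinb3a that are absent from the other stretch are not counted.

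The same stretch is shown for the Serpinb6 rows, because spiny mouse reads were counted on all 4 of them, with capitals at bases that differ from Serpinb6a.
Serpinb6a (chr13:33918119-33918190, minus strand): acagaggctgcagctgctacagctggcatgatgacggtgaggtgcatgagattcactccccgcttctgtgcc
Serpinb6b (chr13:32978210-32978275, plus strand): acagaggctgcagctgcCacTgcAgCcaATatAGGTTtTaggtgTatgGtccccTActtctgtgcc
Serpinb6c (chr13:33880009-33880077, minus strand): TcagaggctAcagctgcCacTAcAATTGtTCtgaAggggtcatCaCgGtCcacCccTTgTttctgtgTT
Serpinb6e (chr13:33832537-33832605, minus strand): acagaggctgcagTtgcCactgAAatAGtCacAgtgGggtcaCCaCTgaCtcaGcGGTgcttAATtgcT
Serpinb6b differed from Serpinb6a at 16 of 66 bases, Serpinb6c at 23 of 69 and Serpinb6e at 22 of 69. Bases of Serpinb6a that are absent from these shorter stretches are not counted.

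Promoter windows of 250 bases before to 50 after the start were given by RefSeq for 25 members, some with several starts, which makes 31 windows. The motif TGANTCA, the core of AP-1 sites and the same on both strands, occurred in the windows of 7 members, all 7 of them among the 11 chromosome 1 members with a window and none among the 14 on chromosome 13 (8 of the 31 windows). Over all 32851 mouse promoter windows the share was 7.81%. The 7 members are the chromosome 1 genes other than the Serpinb3 group and Serpinb13, which has no window here. The last site before the start is shown for 5 of them with 10 bases on each side, on the plus strand of GRCm38, with the motif in capitals.
Serpinb5 (chr1:106861025-106861051): aagttgggccTGAATCAtgtcttccaa
Serpinb12 (chr1:106934394-106934420): aaaaacaatcTGATTCAcgatcattat
Serpinb7 (chr1:107422634-107422660): agggagtgtcTGAGTCAgaggctttat
Serpinb2 (chr1:107511319-107511345): agtaaaatgtTGAATCAtacaaagaat
Serpinb8 (chr1:107589973-107589999): gtgggaagtgTGAGTCAcagagtgttc
The first motif base lay 140 bases before the start in Serpinb5, 45 bases before it in Serpinb12 and Serpinb7, 94 in Serpinb2 and 23 in Serpinb8. These starts are those of the RefSeq windows, and the ones of Serpinb2 and Serpinb8 lie downstream of the gene's first annotated base. Serpinb8 holds another site, 13 bases after the start. TTCNNNGAA occurred in 3 of the 25 members (8.30% of all windows) and CANNTG, the E-box, in 18 of 25 (72.3% of all windows), on either strand. A match describes letters in the window and not a site in use.

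The laboratory mouse libraries held 19413261 to 86532134 reads assigned to genes and the spiny mouse libraries 5669760 to 34751956. Levels are given as CPM, the reads of a gene scaled to all reads assigned to genes in that library. The summed level of 12 keratinocyte genes lay between 157412 and 219014 CPM in laboratory mouse epidermis and between 13.4 and 4783 CPM in the WT dermis. One library stood apart. KO dermis replicate 2 held 36705 CPM of the keratinocyte genes, against 1020 CPM in KO replicate 1. The edgeR results for the KO are also given without replicate 2. KO replicate 1 was itself above its comparison group, WT replicates 3 to 5, which held 13.7, 13.4 and 57.8 CPM. Twist1 itself was 73.4 and 44.0 CPM in the 2 KO dermis libraries and 36.3 to 104.6 CPM in WT replicates 3 to 5. Laboratory mouse epidermis was read paired-end and dermis single-end, so layer and read type cannot be told apart. In bulk RNA, fewer cells of a type and less RNA per cell cannot be told apart either.

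In the laboratory mouse 22 of the 27 members passed 3 counts in some library, 13 reached 10 CPM, and 4 of the Serpinb9 copies (Serpinb9c to Serpinb9f) had no read in any library. Together the members held 3257 to 3782 CPM in the 4 epidermis libraries and 249.9 to 708.4 CPM in the WT dermis. Serpinb5 alone supplied 36.1% to 43.3% of the members' reads in epidermis. Per kilobase of exon, Serpinb5 (506 CPM per kb), Serpinb12 (428) and Serpinb2 (338) stood highest in center epidermis, and Serpinb3a followed at 84.4. In the dermis Serpinb6a was highest at 111 CPM per kb in the wound center.

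**Figure D1:**
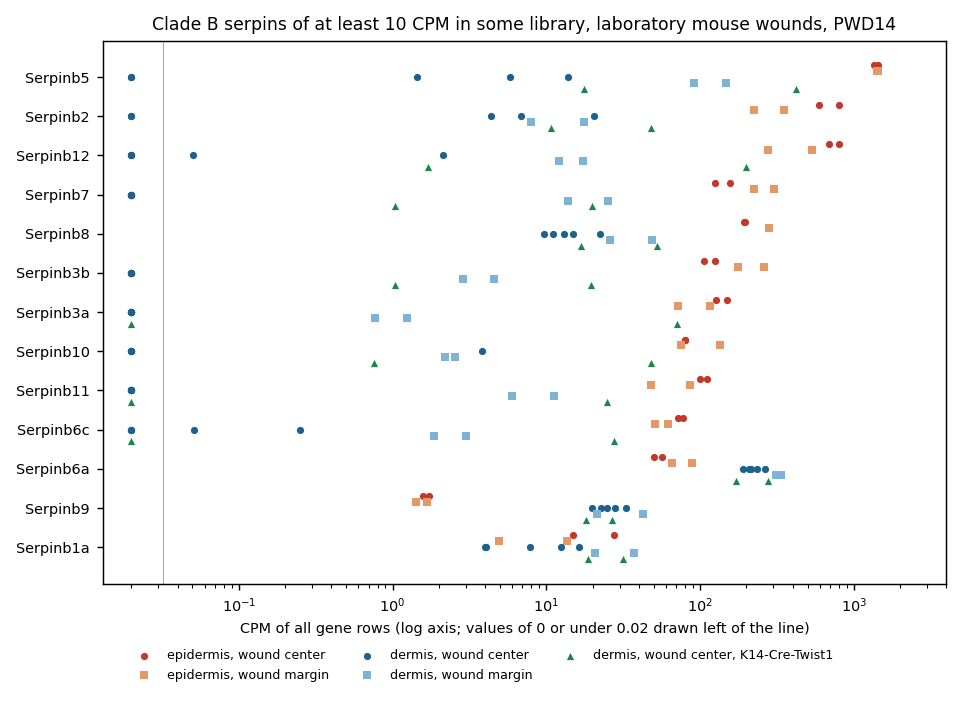
CPM on a log axis of the 13 members that reached 10 CPM in some laboratory mouse library, with each point a library and colors and shapes for layer, wound region and genotype. For 10 of them every epidermis point lies to the right of WT dermis, for Serpinb6a and Serpinb9 WT dermis lies to the right, and Serpinb1a is mixed.

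Between layers at the wound center, 12 of 17 members tested were higher in epidermis and 2 were lower at a false discovery rate (FDR) under 0.05, against 29.3% of all 14329 genes higher and 26.8% lower. At the margin 12 of 16 were higher and 3 lower, against 20.9% and 26.8% of 14964 genes. These contrasts use different libraries of both layers, and each library also enters the center and margin comparisons below. All 11 of the chromosome 1 members tested at the margin, and 11 of 12 at the center, were higher in epidermis, while Serpinb6c was the one chromosome 13 member to be so. Scaling by library size without TMM factors moved the median of all genes from 0.05 to -0.73 at the center and from -0.16 to -0.98 at the margin (log2, epidermis against dermis), and turned the all-gene calls from 4203 higher and 3835 lower to 2435 and 6160 at the center. At the margin they went from 3126 and 4015 to 1599 and 6192. The median change of the members tested at the center was 6.11 with those at the detection floor set to their bound, and at the margin it was 4.37.

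Serpinb5 was 1426 and 1355 CPM in center epidermis, 1431 and 1409 CPM in margin epidermis, 5.80 and 13.8 CPM in center dermis replicates 1 and 2, and 91.0 and 148 CPM in margin dermis. The layers did not overlap, and the log2 difference was 7.95 ± 0.50 (SE) at the center (FDR 0.000295, edgeR) and 4.42 ± 0.49 at the margin (FDR 5.43e-05). Serpinb12, an inhibitor of trypsin-like proteases, was 797 and 693 CPM in center epidermis and had no read in center dermis replicates 1 and 2. Against a floor of 3 counts per library it was at least 4819-fold higher in epidermis (edgeR FDR 0.000165). By the same floor Serpinb7 (megsin), first known from kidney mesangial cells, was at least 908-fold higher, Serpinb3a at least 891-fold, Serpinb3b at least 751-fold, Serpinb11 at least 681-fold and Serpinb6c at least 482-fold. These bounds are on plain CPM.

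Serpinb6a and Serpinb9 had the opposite order. Serpinb6a, an inhibitor of cathepsin G and trypsin-like proteases, was 50.5 and 56.8 CPM in center epidermis, 88.7 and 66.1 CPM in margin epidermis, 191 to 265 CPM in the 5 WT center dermis libraries and 314 and 338 CPM in margin dermis. No epidermis library reached the lowest dermis library, and the log2 difference was -1.43 ± 0.17 at the center (FDR 0.00169, edgeR) and -1.23 ± 0.32 at the margin (FDR 0.0102). Serpinb9, the granzyme B inhibitor of cytotoxic lymphocytes and their neighbors, was 1.42 to 1.72 CPM in the 4 epidermis libraries and 19.7 to 42.6 CPM in the 7 WT dermis libraries. Its log2 difference was -3.15 ± 0.35 at the center (edgeR FDR 0.00143) and -3.52 ± 0.58 at the margin (FDR 0.000723). Serpinb6b was lower in margin epidermis (-2.73 ± 0.96, FDR 0.0378), but at 0 to 6.58 CPM it lost the call in 6 of its alternatives. Serpinb1a, an inhibitor of neutrophil elastase, was 4.96 to 27.8 CPM in epidermis and 4.02 to 37.4 CPM in WT dermis, and the layers overlapped (FDR 0.0664 at the center, edgeR). Macrophage and fibroblast genes were lower in epidermis in the same fits, with 7 of 8 and 10 of 10 lower at the center, and their part in the Serpinb6a and Serpinb9 differences was not tested.

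Within the epidermis no member passed FDR 0.05 between wound center and margin, out of 17 tested, by edgeR's quasi-likelihood test, against 1.24% of 14165 genes. At unadjusted p under 0.05 there were 3 members higher in the center (13.1% of all genes) and 4 lower (10.4%), all 7 on chromosome 1. DESeq2 called 4 at FDR 0.05, Serpinb2 higher and Serpinb3b, Serpinb7 and Serpinb13 lower. The members' median change was -0.02, as was that of all genes.

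Serpinb7 was 156 and 124 CPM in the center and 225 and 303 CPM in the margin, with no overlap and a log2 difference of -1.01 ± 0.23 (edgeR unadjusted p = 0.00467, FDR 0.0973). Serpinb2, also known as plasminogen activator inhibitor 2, was 593 and 799 CPM in the center and 350.2 and 226 CPM in the margin (1.16 ± 0.34, unadjusted p = 0.0146, FDR 0.139). Serpinb12 was 797 and 693 CPM in the center and 276 and 533 CPM in the margin (0.79 ± 0.32, unadjusted p = 0.0496, FDR 0.212). Serpinb5, the most abundant member, had overlapping values in the center and the margin (-0.14 ± 0.24, FDR 0.756).

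The Serpinb3 near copies did not share a direction. Serpinb3b was 126 and 107 CPM in the center and 259.9 and 177 CPM in the margin (-1.03 ± 0.28, edgeR FDR 0.130), while Serpinb3a was 149 and 126 CPM in the center and 116 and 72.4 CPM in the margin (0.43 ± 0.31, FDR 0.435). Their count ratio, Serpinb3b over Serpinb3a, was 0.843 in both center libraries and 2.24 and 2.45 in the margin libraries. Serpinb8, an inhibitor of the proprotein convertase furin, was 197 and 194 CPM in the center and 279 and 282 CPM in the margin (-0.63 ± 0.20, FDR 0.151). Serpinb13, a cathepsin L inhibitor of keratinocytes, was 0.31 and 0.42 CPM in the center and 1.25 and 4.11 CPM in the margin (-3.13 ± 0.80, FDR 0.117), and Serpinb3c was 5.95 and 6.68 CPM against 3.23 and 1.01 CPM (1.69 ± 0.62, FDR 0.185).

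The number of calls depended on single margin libraries. Leaving out either one gave calls among the members, but calls over all genes rose as well. The lone margin library was then assumed to vary like the center pair. Without margin replicate 1 the median log2 change was -0.05 for the members and 0.01 for all genes. Without margin replicate 2 it was 0.09 and 0.17. The summed fibroblast genes were 5352 and 4407 CPM in center epidermis and 2017 and 667 CPM in margin epidermis, and the neutrophil genes 278 and 421 CPM against 163 and 70.5 CPM. Wound and suprabasal keratinocyte genes summed to 19010 and 27277 CPM against 8574 and 12376 CPM. At unadjusted p under 0.05 (edgeR) 4 of 8 were higher in the center and 1 lower. Of 6 hair follicle sheath and shaft genes 5 were lower and 1 higher by that rule. Adipocyte genes were 430 to 554 CPM against 35.5 to 66.9 CPM. Their part in the members' values was not tested.

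**Figure D2:**
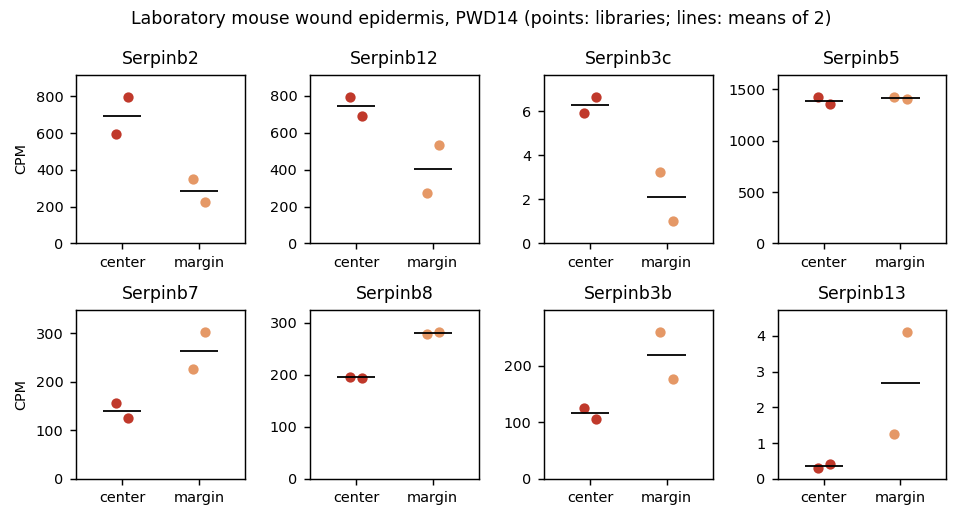
CPM of 8 members in laboratory mouse epidermis at PWD14, by wound region, each panel on a linear axis from 0 with points for libraries and lines for means. Serpinb2, Serpinb12 and Serpinb3c lie higher in the center, Serpinb7, Serpinb8, Serpinb3b and Serpinb13 higher in the margin, and Serpinb5 is level.

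In the dermis the center was lower than the margin for 2 of 14 members tested, against 0.735% of 14698 genes lower, and 9 were lower at unadjusted p under 0.05 (10.7% of genes). Serpinb5 fell from 91.0 and 148 CPM in the margin to 5.80 and 13.8 CPM in the center (log2 -3.54 ± 0.39, edgeR FDR 0.00205), and without margin replicate 2 its FDR was 0.0648. Serpinb7 was 13.9 and 25.3 CPM in the margin and had no read in the center, at least 127-fold lower there (edgeR FDR 0.0484), and the FDR was 0.195 without margin replicate 1 and 0.608 without margin replicate 2. Serpinb12 was 12.1 and 17.4 CPM in the margin and 0 in the center, at least 95.6-fold lower, with an FDR of 0.0666. Serpinb11, which inhibits trypsin-like proteases in the mouse, was 6.03 and 11.2 CPM in the margin and 0 in the center (FDR 0.131).

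These members are the epidermal ones, and keratinocyte genes moved with them. All 12 keratinocyte genes had p under 0.05 and 7 of 12 were lower in center dermis at FDR 0.05, with sums of 2369 and 4783 CPM in the margin and 633 and 440 CPM in center replicates 1 and 2. The 7 hair follicle sheath and shaft genes were all lower, from sums of 831 and 840.5 CPM in the margin to 4.31 and 0 CPM in the center. Their part in the members' change was not tested. The members that are abundant in dermis showed no call, with Serpinb6a at -0.29 ± 0.19 (FDR 0.510) and Serpinb9 at -0.25 ± 0.39 (FDR 0.834).

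The difference between center and margin was itself compared between epidermis and dermis. It differed for 6 of 17 members at FDR 0.05, all with the center relatively higher in epidermis, against 3.34% of 15531 genes in that direction and 0.135% in the other. Of these only Serpinb5 had reads in all 8 libraries, with an interaction of 3.54 ± 0.53 on the log2 scale (edgeR FDR 0.00554). For Serpinb12 (FDR 0.00198), Serpinb7 (0.0031), Serpinb11 (0.00477) and Serpinb3b (0.0277) both center dermis libraries were at 0, and for Serpinb6c (0.0163) they held 0 and 0.05 CPM, so their fitted sizes are no bound. Serpinb3c, Serpinb3d and Serpinb13 had no read in any of the 4 dermis libraries. They were among the 17 tested and were not called, and their dermis side holds no information on a difference. Without center dermis replicate 1 the count was 3. In the same fit 7 of 12 keratinocyte genes and 4 of 8 wound and suprabasal keratinocyte genes were called in that direction and 0 in the other, and their part in the members' result was not tested.

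**Figure D3:**
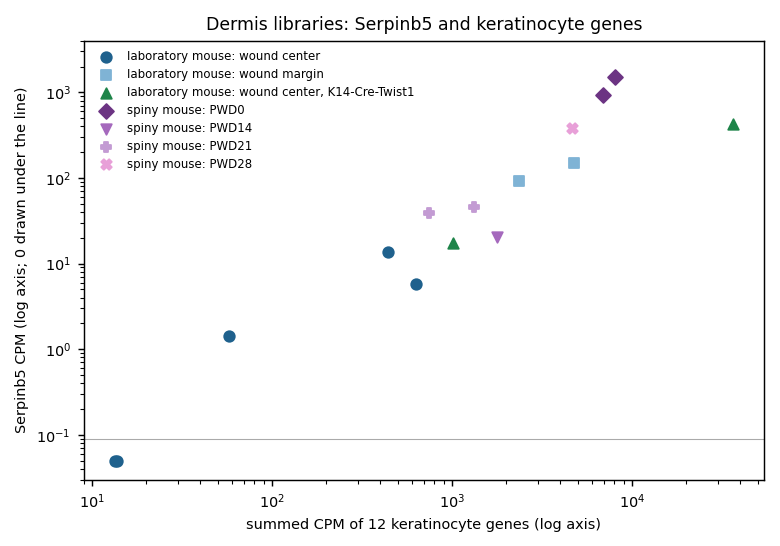
Serpinb5 CPM against the summed CPM of 12 keratinocyte genes in the 9 laboratory mouse and 6 spiny mouse dermis libraries, both axes logarithmic, with values of 0 drawn under the line. KO replicate 2 lies far to the right at 36705 CPM of keratinocyte genes, and WT center dermis replicates 3 and 4, with the fewest keratinocyte reads, have no Serpinb5 read.

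Between K14-Cre-Twist1 and WT center dermis no member passed FDR 0.05, out of 11 tested, by edgeR's quasi-likelihood test, against 0.0565% of 14163 genes. At unadjusted p under 0.05 there were 8 higher and 0 lower, against 6.98% of genes higher and 4.54% lower, and DESeq2, which was not run without KO replicate 2, called Serpinb3b, Serpinb7 and Serpinb10 higher. Serpinb5 was 17.6 and 424 CPM in the KO and 0, 0 and 1.44 CPM in WT replicates 3 to 5 (edgeR FDR 0.0767). Serpinb12 was 1.69 and 199 CPM in the KO and 0, 0.05 and 2.13 CPM in the WT (FDR 0.181), with overlap. Serpinb8 was 16.8 and 52.4 CPM in the KO and 13.0, 10.99 and 9.64 CPM in the WT (1.601 ± 0.55, FDR 0.347).

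In each of these the higher value was KO replicate 2, the library rich in keratinocyte genes. Without it no member had an FDR under 0.05 and 1 had an unadjusted p under 0.05, Serpinb5 at a log2 difference of 5.13 ± 1.11 (edgeR FDR 0.129). Serpinb12 was then at 1.18 ± 2.01 (FDR 0.922) and Serpinb8 at 0.61 ± 0.53 (FDR 0.889). With KO replicate 1 left out in its place, the fitted median log2 change was 8.25 for the members and -0.33 for all genes. Several WT values were 0, and calls over all genes rose as well. Against all 5 WT center dermis libraries Serpinb5 and Serpinb12 were called higher, out of 11 members tested. In that fit 186 of 14580 genes were called higher and 4 lower. Of the dermal members, Serpinb6a was 275 and 172 CPM in the KO and 191 to 216 CPM in the WT (0.13 ± 0.26, FDR 0.855), and 0.46 ± 0.22 without KO replicate 2 (FDR 0.841). Serpinb9 was 26.7 and 18.02 CPM against 19.7 to 33.2 CPM (-0.23 ± 0.44, FDR 0.847), and 0.06 ± 0.43 without KO replicate 2 (FDR 0.982). All 11 keratinocyte genes tested were higher in the KO at p under 0.05 (edgeR). Their sum in KO replicate 1 alone was 1020 CPM, also above the 13.4 to 57.8 CPM of WT replicates 3 to 5. Their part in the members' values was not tested.

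In spiny mouse epidermis the members fell into opposite groups between PWD14 and PWD21. At PWD14, 6 of 20 tested were higher and 9 were lower, against 23.4% and 23.2% of 12889 genes. Serpinb6e did not pass (0.44 ± 0.17, edgeR FDR 0.0503), and its CPM overlapped between the days. The higher ones were Serpinb1a, Serpinb1b, Serpinb1c, Serpinb6a, Serpinb6b and Serpinb6c, all on chromosome 13. These are rows of related copies within the Serpinb1 and Serpinb6 groups, so the 6 calls need not be 6 spiny mouse genes. The lower ones were 8 chromosome 1 members (Serpinb2, Serpinb3a, Serpinb3b, Serpinb3d, Serpinb7, Serpinb8, Serpinb12 and Serpinb13) and Serpinb9b, whose call at 0.06 to 1.33 CPM was lost in 7 alternatives. The members' median was -0.81 and that of all genes -0.04. Scaling by library size alone moved the all-gene median to -0.59 and the all-gene calls to 1335 higher and 5721 lower, from 3011 and 2991, and the members' calls to 6 higher and 13 lower, with none changing direction among those already called.

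Serpinb6a was 94.0 CPM at PWD0, 676 and 706 CPM at PWD14, 438 and 390.3 CPM at PWD21 and 111 CPM at PWD28. Both PWD14 libraries were the highest of the 6, and the PWD28 library lay close to the PWD0 one. The log2 difference of PWD14 to PWD21 was 1.29 ± 0.16 (edgeR FDR 0.000133). Serpinb6c followed, at 71.9 CPM, then 597 and 642 CPM, then 363 and 325 CPM, and 82.6 CPM at PWD28 (1.40 ± 0.16, FDR 8.89e-05). Serpinb1a went from 21.8 CPM at PWD0 to 69.0 and 83.7 CPM at PWD14, 47.7 and 47.7 CPM at PWD21 and 21.5 CPM at PWD28 (1.23 ± 0.17, FDR 0.000274).

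Serpinb7 ran the other way. It was 498 CPM at PWD0, 7.75 and 12.6 CPM at PWD14, 130.2 and 205 CPM at PWD21 and 270.1 CPM at PWD28, with a PWD14 to PWD21 difference of -3.47 ± 0.27 (edgeR FDR 5.05e-05). Serpinb13 was 61.1 CPM at PWD0, 4.57 and 8.42 CPM at PWD14, 68.3 and 64.4 CPM at PWD21 and 116 CPM at PWD28 (-2.79 ± 0.26, FDR 5.17e-05). Both were lowest in the 2 PWD14 libraries of the 6.

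Serpinb8 was 90.2 CPM at PWD0, 14.3 and 20.4 CPM at PWD14, 63.9 and 86.8 CPM at PWD21 and 60.0 CPM at PWD28 (-1.56 ± 0.22, edgeR FDR 0.000309). Serpinb2 was 298 CPM at PWD0, 14.2 and 55.3 CPM at PWD14, 179.9 and 193 CPM at PWD21 and 176 CPM at PWD28 (-1.87 ± 0.40, FDR 0.00314). Serpinb12 differed from these in its PWD0 level, which was as low as at PWD14. It was 62.2 CPM at PWD0, 63.3 and 98.5 CPM at PWD14, 338 and 329 CPM at PWD21 and 130.1 CPM at PWD28 (-1.50 ± 0.19, FDR 0.000186). Serpinb3a was 3.87 CPM at PWD0, 1.55 and 2.55 CPM at PWD14, 17.1 and 23.0 CPM at PWD21 and 15.5 CPM at PWD28 (-2.70 ± 0.34, FDR 0.000161).

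Serpinb5 was 1378 CPM at PWD0, 1185 and 1678 CPM at PWD14, 2042 and 2336 CPM at PWD21 and 1522 CPM at PWD28. Its CPM did not overlap between PWD14 and PWD21, but the result depended on the scaling. The log2 difference was -0.06 ± 0.18 with TMM factors (edgeR FDR 0.789) and -0.61 ± 0.18 with library size alone (FDR 0.0167). Serpinb3c, Serpinb10 and Serpinb11 were likewise not called with TMM factors and called lower at PWD14 with library size alone. In the same fit, 5 of 8 wound and suprabasal keratinocyte genes were higher at PWD14 and 2 were lower, and the 12 keratinocyte genes split into 3 higher and 2 lower. All 7 hair follicle sheath and shaft genes were lower at PWD14. The summed neutrophil genes were 2618 and 1643 CPM at PWD14 and 538 and 304 CPM at PWD21, and the adipocyte genes 6303 and 5160 CPM against 1350 and 1053 CPM. Their part in the members' differences was not tested.

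**Figure D4:**
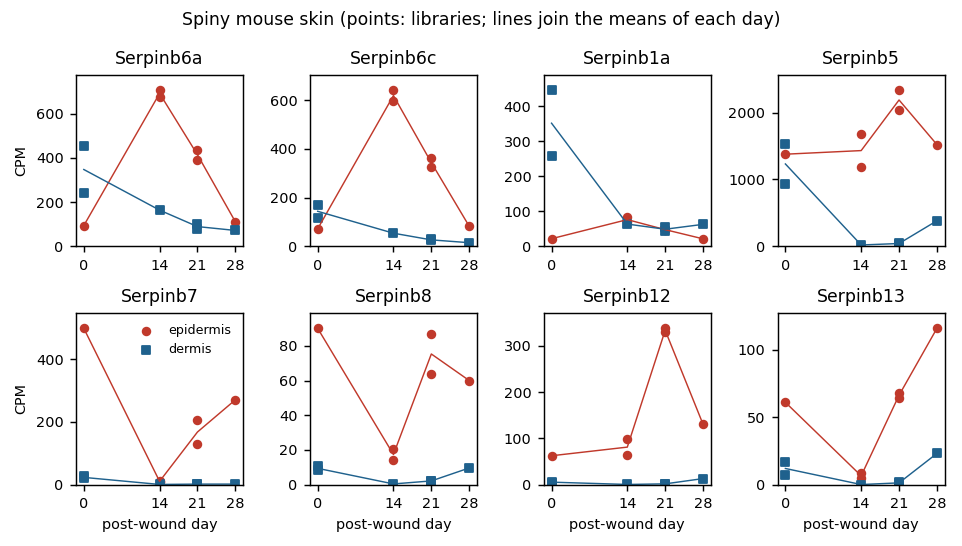
CPM of 8 members in spiny mouse epidermis (circles) and dermis (squares) by post-wound day, with each point a library, lines joining the means, and linear axes from 0. Serpinb6a and Serpinb6c peak at PWD14 in epidermis, while Serpinb7, Serpinb8 and Serpinb13 are lowest there, and dermal Serpinb1a and Serpinb5 are highest at PWD0.

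In spiny mouse dermis every call went down from PWD0 to PWD21, for 15 of 19 members tested, against 14.2% of 14481 genes lower and 12% higher. As in epidermis, rows of related copies in this count need not be separate genes. The members' median was -2.68 and that of all genes 0.03. Serpinb5 was 1526 and 937 CPM at PWD0, 20.4 CPM at PWD14, 38.6 and 46.3 CPM at PWD21 and 383 CPM at PWD28 (PWD21 against PWD0, -4.999 ± 0.47, edgeR FDR 0.000392). Serpinb2 was 219 and 135 CPM at PWD0, 0.29 CPM at PWD14, 3.65 and 4.29 CPM at PWD21 and 19.6 CPM at PWD28 (-5.62 ± 0.43, FDR 0.000227). Both PWD0 libraries were above all later ones for these members.

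Serpinb11 was 67.6 and 39.1 CPM in PWD0 dermis and 0.09 and 0.20 CPM at PWD21 (-8.51 ± 0.60, edgeR FDR 0.000197). In epidermis it was only 14.2 CPM at PWD0 and at most 1.68 CPM on later days. Serpinb10, a serpin first known from blood-forming cells, was 69.3 and 58.9 CPM in PWD0 dermis and 0.36 and 1.06 CPM at PWD21 (-6.55 ± 0.57, FDR 0.000331). Serpinb1a was 446 and 257 CPM in PWD0 dermis, above its 21.8 CPM in PWD0 epidermis, and 54.8 and 43.0 CPM at PWD21 (-2.996 ± 0.40, FDR 0.00164). Serpinb6a was 455 and 239 CPM at PWD0, 164 CPM at PWD14, 99.8 and 78.8 CPM at PWD21 and 71.9 CPM at PWD28 (-2.11 ± 0.41, FDR 0.00778), and its call was lost when either PWD21 library was left out.

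The PWD0 dermis held other cells' RNA at high levels. Its summed keratinocyte genes were 8055 and 6873 CPM against 742 and 1320 CPM at PWD21, with 11 of 12 lower, and its mast cell genes were 5523 and 4990.5 CPM against 615 and 448 CPM, with 6 of 6 lower. Its wound and suprabasal keratinocyte genes summed to 9837 to 16242 CPM against 607 to 620 CPM at PWD21, with 6 of 8 lower. In the 1 library of PWD0 epidermis that sum was 12413 CPM. The 6 skeletal muscle and 6 adipocyte genes were lower too. Their part in the members' fall was not tested, and with 1 library at PWD14 and PWD28 those days carry no test.

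At PWD21 the spiny mouse layers gave 16 of 23 members higher in epidermis and 0 lower (edgeR), against 29.4% and 33.5% of 14966 genes. At unadjusted p under 0.05 the counts were again 16 and 0, against 31.4% and 35.5% of genes. The PWD21 libraries are those of the day comparisons above. All 12 chromosome 1 members were among them, with 4 from chromosome 13 (Serpinb6a, Serpinb6b, Serpinb6c and Serpinb6e). Those 4 rows are related copies and need not be 4 spiny mouse genes. Serpinb12 was 338 and 329 CPM in epidermis and 0.78 and 2.16 CPM in dermis (7.88 ± 0.49, FDR 1.3e-05). Serpinb13 was 68.3 and 64.4 CPM against 1.55 and 0.92 CPM (5.90 ± 0.31, FDR 7.95e-06). Serpinb6a was 438 and 390.3 CPM in epidermis and 99.8 and 78.8 CPM in dermis (2.34 ± 0.22, FDR 8.38e-05), an order opposite to that within the PWD14 laboratory mouse wounds. Days and mapping differ, and the species were not tested against each other. Serpinb1a was 47.7 and 47.7 CPM in epidermis and 54.8 and 43.0 CPM in dermis (0.09 ± 0.20, FDR 0.718).

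Related copies behaved differently in the 2 species. In the spiny mouse Serpinb1b was 0.251 to 0.376 of Serpinb1a and Serpinb1c was 0.0952 to 0.166 of Serpinb1a in all 12 libraries, across layers and days in which Serpinb1a ranged from 21.5 to 446 CPM. In the laboratory mouse Serpinb1b had reads above the floor of 3 counts in 3 of 13 libraries and Serpinb1c in 1. The ratios of the Serpinb6 rows to Serpinb6a were higher in every spiny mouse epidermis library than in every dermis library, and they also varied within a layer. Serpinb6b was 0.898 to 1.17 of Serpinb6a in epidermis and 0.399 to 0.721 in dermis. Serpinb6c was 0.743 to 0.909 of it in epidermis and 0.209 to 0.486 in dermis, and Serpinb6e 0.152 to 0.327 and 0.0655 to 0.141. In epidermis Serpinb6b and Serpinb6e were lower against Serpinb6a in both PWD14 libraries (0.898 and 0.938, 0.152 and 0.192) than in both PWD21 libraries (1.08 and 1.17, 0.293 and 0.327). In laboratory mouse epidermis Serpinb6c was 0.699 to 1.42 of Serpinb6a, while Serpinb6b was at most 0.012 of it. Whether the spiny mouse rows of the Serpinb1 and Serpinb6 groups hold reads of 1 gene or of several cannot be told from counts on mouse genes.

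**Figure D5:**
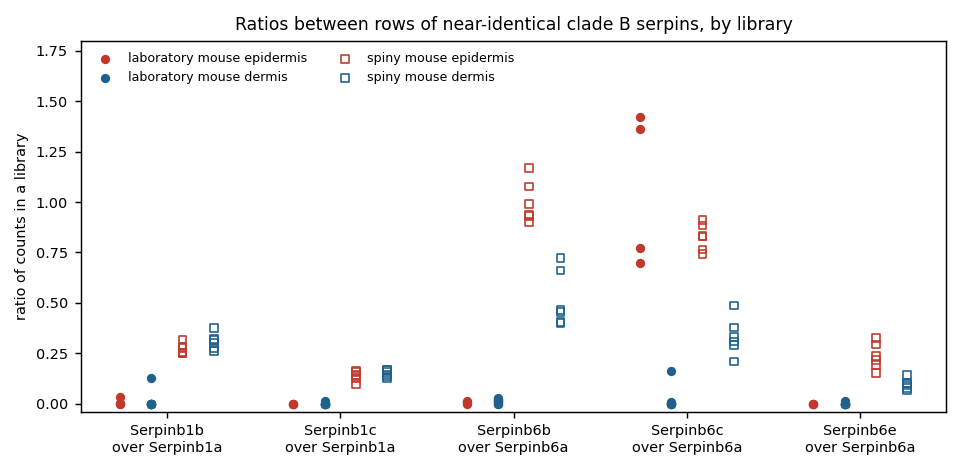
Ratio of counts between rows of the Serpinb1 and Serpinb6 groups in each library, filled for laboratory mouse and open for spiny mouse, red for epidermis and blue for dermis. Serpinb1b and Serpinb1c keep a narrow ratio to Serpinb1a in all 12 spiny mouse libraries, and the Serpinb6 ratios separate spiny mouse epidermis from dermis.

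The remaining members had few reads. Serpinb9f and Serpinb9g had at most 3 counts in every library, and Serpinb6d, Serpinb9c and Serpinb9d stayed at or below 1.13 CPM. Serpinb9e reached 1.19 CPM and Serpinb9b 4.85 CPM, both in spiny mouse dermis. Of the 75-base coding stretches, 53.5% in Serpinb9f, 72.5% in Serpinb9g and 29.9% in Serpinb9c also occur in another gene's transcript. Whether this lowered their counts was not tested.

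A list of 14 proteases that clade B members are known to inhibit, or that act beside them, was examined in the same fits. Most of its calls fell between layers, as did those of all genes. At the wound center 2 of 9 tested were higher in epidermis and 4 lower (29.3% and 26.8% of all genes). The higher ones were Furin (1.95 ± 0.15) and Plau (urokinase, 1.45 ± 0.23), the targets of Serpinb8 and Serpinb2. In CPM Furin was 242 to 265 in center epidermis and 105 to 200 in the 5 WT center dermis libraries. Plau was 87.5 to 88.1 CPM against 43.3 to 88.5 CPM, with overlap. By sign alone 7 of the 9 were lower in epidermis, with a median log2 difference of -3.43. Among them was Plat (tissue plasminogen activator), at 14.0 to 14.7 CPM in center epidermis and 223 to 372 CPM in WT center dermis. At the margin 1 of 8 was higher and 5 were lower (20.9% and 26.8% of genes). Mean CPM there was 81.9 in epidermis and 80.1 in dermis for Furin, and 55.0 and 50.5 for Plau. Between the spiny mouse layers at PWD21 3 of 10 were higher and 4 lower (29.4% and 33.5%). In spiny mouse dermis 1 of 9 was higher at PWD21 than at PWD0 and 2 were lower (12% and 14.2%).

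Between center and margin epidermis 2 of the 7 tested were higher in the center and none lower, against 1.24% of genes called. They were Plat (tissue plasminogen activator, 2.67 ± 0.36, edgeR FDR 0.0421) and Ctsk (cathepsin K, 2.78 ± 0.40, FDR 0.0455). In the fit of the center to margin difference between layers 2 of 10 were higher (3.34% of genes). In the dermis 0 of 10 were called between center and margin by edgeR (4 at unadjusted p under 0.05), and 0 of 9 between KO and WT (2 at unadjusted p under 0.05, and 2 of 11 without KO replicate 2). In spiny mouse epidermis Plau was lower at PWD14 than at PWD21 (-0.79 ± 0.21, FDR 0.0106) and Furin higher (0.68 ± 0.20, FDR 0.0182), out of 8 tested, against 23.2% and 23.4% of genes. Both are changes with TMM factors. In CPM Furin overlapped between the days, at 166 to 232 CPM at PWD14 and 164 to 201 CPM at PWD21. Plau did not, at 25.3 to 38.7 CPM against 72.4 to 90.1 CPM. Elane, the neutrophil elastase that Serpinb1a inhibits, was at most 0.294 CPM in all 25 libraries.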

How the data were processed

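Counts of reads per gene symbol were deposited by the authors, 1 table per library, as whole numbers without normalization. Per the labels, reads of 75 bases were aligned to mm10 with STAR 2.4.1d and counted with HTSeq 0.6.0. The annotation was RefSeq, and the strand option and quality minimum are not given in the sources used here. In each library 5 summary lines, 30.2% to 75.6% of reads, were left out of library sizes. In spiny mouse epidermis 26.8% and 24.4% of reads fell on genes at PWD14, and 34.1% and 38.3% at PWD21. In dermis the shares were 27.0% and 32.8% at PWD0 and 44.9% and 52.9% at PWD21. Day and this share cannot be told apart. Members and gene lists were chosen with earlier results of these data known, and no set test was made. Results for the other serpin clades are not reported here. All members may be named, with values per library for those called (at most 10 by size), or, where fewer than 3 were, up to 6 of lowest p under 0.05.

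CPM used all gene rows. Comparisons used edgeR 4.0.16 on the counts as deposited (filterByExpr, TMM, glmQLFit, glmQLFTest, prior count 0.125), with only the libraries compared, and Benjamini-Hochberg FDR over all genes tested. The interaction used the 8 libraries of center and margin in both layers. The SE is the log2 change over the square root of F. Exon lengths came from GENCODE M21. A floor of 3 counts, which covers counting error only, bounds folds against libraries at or below it. Floors were 0.0347 to 0.529 CPM. Alternatives were DESeq2 1.42.0, other factors, filters and library choices. Fits were tested on simulated data. Replicate pairs differed by 28.3 to 375 times the sampling variance, so none was counted as 1 library.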

Additional observations from a re-analysis of the deposited data

Results flagged for a closer look

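In the 5 WT center dermis libraries, 11 members above 3 counts were checked for a library far from the others. The rule compares the largest gap with the range. It therefore marks any member with reads in only 1 library, and no error rate applies. The flags below are of this kind or close to it. Serpinb10 was 3.81 CPM in replicate 1 and 0 in the other 4. Serpinb12 was 2.13 CPM in replicate 5 and at most 0.05 CPM elsewhere. Serpinb1b was 2.11 CPM in replicate 2 and 0 elsewhere, and Serpinb6c was 0.25 CPM in replicate 4 and at most 0.05 CPM elsewhere. The summed keratinocyte genes were highest in replicates 1 and 2, at 633 and 440 CPM, and 57.8 CPM in replicate 5.

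The center to margin difference differed between epidermis and dermis for 6 members by the interaction test (edgeR). The FDR was 0.00198 for Serpinb12, 0.0031 for Serpinb7, 0.00477 for Serpinb11, 0.00554 for Serpinb5, 0.0163 for Serpinb6c and 0.0277 for Serpinb3b.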

How the results depend on the processing

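Of 105 recomputed counts of members called, 87 stayed within 1.5 times. Of the values recomputed for named members, 1022 kept their direction and side of the threshold, 52 lost the call, 36 gained it and 0 reversed. With TMM factors in the CPM, 129 group means moved by more than 1 SD or came from 1 library and so have no SD, and 115 moved by less. The cause of the shifts was not tested, except that a minimum of 10 counts in every library leaves fewer members to test. DESeq2 gave 4 calls in epidermis center against margin (main 0), 5 in dermis center against margin (main 2) and 3 in KO against WT dermis (main 0). With all 5 WT center dermis libraries the last pair gave 4 and 2, and with all libraries of the species in 1 fit they gave 0 and 4. Library size alone gave 1 for dermis center against margin. The minimum of 10 counts gave 1 there, 6 for the layers at the center (main 14), 10 for the spiny mouse layers (main 16) and 1 for the interaction (main 6).

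Leaving out each library in turn gave 0 to 13 calls in epidermis center against margin (13 without margin replicate 1, 7 without margin replicate 2), 0 to 3 in dermis center against margin (1 and 0 without margin replicates 1 and 2) and 0 to 11 in KO against WT (11 without KO replicate 1). It gave 13 to 17 and 11 to 15 for the layers at center and margin, 3 to 7 for the interaction (3 without center dermis replicate 1), 14 to 16 for PWD14 against PWD21, 12 to 16 for PWD21 against PWD0 and 16 to 18 for the spiny mouse layers. Counts over all genes moved too: DESeq2 called 914 higher and 597 lower in epidermis center against margin (main 125 and 51) and the edgeR 3 estimate 0. Such counts also rose in the fits without a margin epidermis library or without KO replicate 1, which leave 1 library in a group. No paired analysis was possible because the labels carry no replicate numbers that tie libraries across groups. Spiny mouse depth limits members under about 0.5 CPM.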
